A study of Mus musculus with 9 samples.

Results

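The autophagy and lysosome genes examined here are 41 mouse genes out of the 55487 genes in the deposited count table. They were listed by symbol from their known function, with earlier results of these data known, and comprise 12 genes of autophagy initiation, 11 genes of the conjugation system that attaches LC3-type proteins to membranes, 3 autophagy receptors, the 3 transcription factors of the TFEB family, 8 lysosomal enzymes and 4 lysosomal membrane proteins. All 41 were found in the table and all 41 passed the filter on low counts. Expression was measured by RNA-seq in retinas taken at postnatal day 28 from wild-type C57BL/6J mice, from which the sclera and the pigment epithelium had been dissected away. The control group (5 libraries) was kept for 48 h in Neurobasal-A medium with 5 mM glucose. The 2-DG group (4 libraries) was kept for the same 48 h in 5 mM glucose to which 2-deoxy-D-glucose (2-DG) had been added at 20 mM, a glucose analog that is phosphorylated but not metabolised further and so blocks glycolysis. The protocol then gives 1 h in Krebs' Ringer medium for both groups. It states that retinas for RNA-seq were processed immediately, without saying whether they skipped this step. The design asks how gene expression in the retina responds when glycolysis is inhibited, here for the genes of one degradation pathway.

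Autophagy encloses cytoplasm in a double membrane and delivers it to lysosomes, where acid hydrolases break it down. The ULK1 complex starts the process, the class III phosphatidylinositol 3-kinase complex marks the membrane, and ubiquitin-like conjugation joins LC3 and GABARAP proteins to lipid so that receptors such as p62 can tether cargo. TFEB, TFE3 and MITF bind E-box sequences in the promoters of many lysosomal genes and are held in the cytoplasm by mTORC1 when nutrients are plentiful. In the retina, autophagy and lysosomes are known for the turnover of photoreceptor components and, in the pigment epithelium, of shed outer segments.

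Libraries held between 11318087 and 51802230 estimated counts. The lowest value of any member in any library, 2.39 CPM (counts per 1000000 counts, scaled between libraries by the TMM method), lay above the level that 3 counts represent, which was 0.0556 to 0.255 CPM depending on the library. The 10 rod markers, which define the retinal tissue, were all present and summed to 5237 to 45158 CPM, with the highest sum in control replicate 2. The endoplasmic reticulum chaperone genes Hspa5, Pdia4, Hyou1 and Sdf2l1, listed as a check of the treatment, were all higher in each 2-DG library than in any control library. Their log2 fold changes were 1.00, 1.70, 1.18 and 2.54, with adjusted p-values between 0.181 and 0.538 (edgeR's quasi-likelihood test, Benjamini-Hochberg). These chaperone genes were listed with earlier results of these data known. From the same RNA-seq, the paper reports activated endoplasmic reticulum stress and protein folding pathways, and a higher level of Pdia4. The chaperone levels are therefore not an independent check of the treatment. The samples are labelled biological replicates, but whether libraries of a group came from different animals is not given, so the p-values measure the spread between these libraries.

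None of the 41 members passed an adjusted p-value of 0.05 in edgeR's quasi-likelihood test, as was the case for 0% of the 21049 genes tested (DESeq2 called 284 genes and limma-voom 1222). The members lay mostly on one side in this fit. Their log2 fold change was above 0 in 32 of 41 (78.0%), against 49.2% of all genes tested, and its median was 0.15, against −0.01 over all genes. With upper-quartile scaling, which lowered all genes (42.0% above 0, median −0.09), 25 of 41 members lay above 0 and their median was 0.06. With limma-voom 22 of 41 members lay above 0 and their median was 0.01, against 0.00036 over all genes. At an unadjusted p-value under 0.05 there were 4 members with a higher level in 2-DG explants (9.76% of the members, against 2.42% of all genes), namely the lysosomal protease Ctsa, the phosphatidylinositol 3-kinase subunits Atg14 and Becn1, and the lysosomal membrane protein Lamp1. No member had a lower level at that limit, against 4.83% of all genes. The groups did not overlap, with every 2-DG library above every control library, in 3 members (Ctsa, Atg14 and Becn1), against 1.52% of all genes, and in the opposite direction in 0 members, against 1.41%. DESeq2 gave the same 4 members at that limit (3.51% of all genes higher, 6.78% lower) and 0 past the adjusted threshold, and limma-voom with sample quality weights gave 9 higher, against 10.6% of all genes, and 2 lower, against 15.4%, with Ctsa past the adjusted threshold (adjusted p = 0.0284, range over all alternatives 0.0284 to 0.985). The counts depended on single libraries. Without 2-DG replicate 4 there were 2 higher members (Ctsa and Atg16l1), which is 4.88% of 41, against 3.38% of all genes, with 9.49% of all genes lower. In that fit 22 of 41 log2 fold changes lay above 0, against 46.5% of all genes, and the median was 0.01 over the members and −0.05 over all genes. There were also 2 (Ctsa and Atg14) without control replicate 3 (2.39% of all genes) or without control replicate 4 (1.35%), and without control replicate 2 Gla was lower at that limit, as were 6.07% of all genes. Without both control replicate 2 and 2-DG replicate 3, whose marker levels stood apart, there were 3 higher members (Atg14, Ctsa and Mcoln1), against 2.90% of all genes, and 31 of 41 above 0, against 51.0%.

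**Figure D1:**
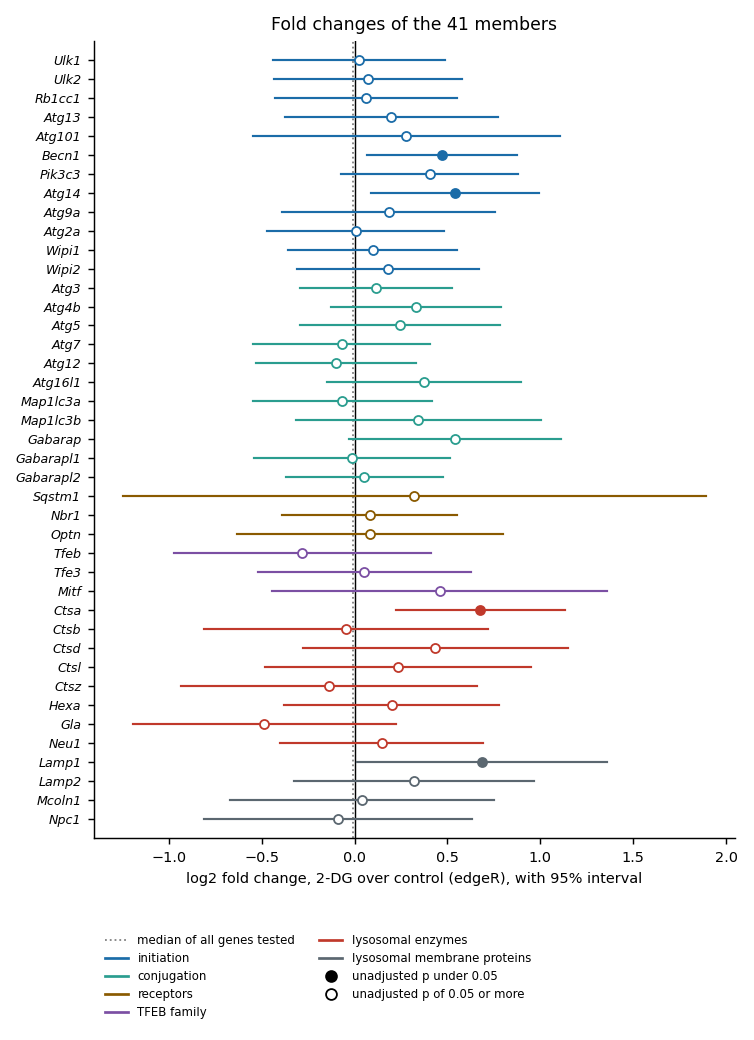
Log2 fold change of each of the 41 members (x axis, 2-DG over control, edgeR) with its 95% interval, coloured by subgroup, with filled circles for an unadjusted p under 0.05. Most points lie to the right of 0, but the intervals of 37 members hold 0, and only Ctsa, Atg14, Becn1 and Lamp1 have filled circles.

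The 95% interval of the fold changes of the members had a width to either side of 0.40 to 1.57 on the log2 scale, with a median of 0.55. It lay inside a 2-fold change in either direction for 32 of 41 members (78.0%), which was the case for 33.9% of all genes tested and for 61.5% of the 9150 genes with a mean of at least 20 CPM. For these 32 genes, which include Ulk1, Atg13, Atg5, Atg12 and Neu1, a change of the mean level of more than 2-fold lay outside the interval. The interval was widest for Sqstm1.

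The promoters of the 4 members with an unadjusted p under 0.05 were examined for the E-box that the TFEB family is known to bind, since 3 of the 4 (Ctsa, Lamp1 and Atg14) have an entry in the RefSeq promoter table. They are printed with the promoter of Gla, the member with the lowest log2 fold change (−0.49), which holds the same letters and of whose gene value the transcripts with a known length make up 15.5%. Each window runs from 250 bases before to 50 bases after an annotated start (RefSeq, GRCm38.p6), written 5′ to 3′ on the strand of the gene, and capitals mark the E-box CACGTG. The windows are chr2:164833523-164833822 on the plus strand for Ctsa, chr8:13158911-13159210 on the plus strand for Lamp1, chr14:47568385-47568684 on the minus strand for Atg14 and chrX:134600956-134601255 on the minus strand for Gla.
Ctsa: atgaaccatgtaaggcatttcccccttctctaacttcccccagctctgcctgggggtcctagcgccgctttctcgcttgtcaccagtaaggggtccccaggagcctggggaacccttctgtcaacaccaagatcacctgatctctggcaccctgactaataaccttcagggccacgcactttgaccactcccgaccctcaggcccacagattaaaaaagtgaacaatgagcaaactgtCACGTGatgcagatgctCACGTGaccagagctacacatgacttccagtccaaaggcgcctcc
Lamp1: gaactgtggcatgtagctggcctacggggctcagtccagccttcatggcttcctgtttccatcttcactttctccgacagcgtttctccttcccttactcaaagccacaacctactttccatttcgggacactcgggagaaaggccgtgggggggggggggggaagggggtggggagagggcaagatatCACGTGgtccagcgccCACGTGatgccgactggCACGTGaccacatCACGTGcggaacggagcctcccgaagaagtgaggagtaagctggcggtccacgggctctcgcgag
Atg14: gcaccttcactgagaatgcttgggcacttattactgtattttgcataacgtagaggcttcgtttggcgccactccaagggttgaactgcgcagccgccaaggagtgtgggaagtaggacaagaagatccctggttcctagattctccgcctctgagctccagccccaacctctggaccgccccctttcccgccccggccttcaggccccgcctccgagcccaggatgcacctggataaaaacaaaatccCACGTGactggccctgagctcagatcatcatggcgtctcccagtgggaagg
Gla: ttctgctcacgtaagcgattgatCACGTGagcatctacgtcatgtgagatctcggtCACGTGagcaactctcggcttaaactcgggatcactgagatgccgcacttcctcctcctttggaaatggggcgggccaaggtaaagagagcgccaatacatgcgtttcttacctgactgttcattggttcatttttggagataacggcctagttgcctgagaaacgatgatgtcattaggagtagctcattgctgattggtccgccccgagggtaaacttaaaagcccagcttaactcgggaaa
Lamp1 carried 4 E-boxes within the 61 bases before its start, Ctsa 2, with its start between them, Atg14 1 across its start, and Gla 2 farther upstream, at 227 and 194 bases before it. A further Ctsa window around another annotated start (chr2:164832622-164832921) held none. This further window holds the first base of the Ctsa gene span given below. The printed Ctsa and Atg14 windows surround annotated starts that lie inside the gene spans given below.

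Promoter windows were on hand for 33 of the 41 members. CACGTG, which reads the same on both strands, was present in 10 of these 33 genes (30.3%), against 8.09% of the 27025 genes in the promoter table and 7.15% of its 32851 windows. The longer palindrome TCACGTGA, a core of the CLEAR element that contains the E-box, was present in 5 of 33 (15.2%: Atg3, Ctsa, Ctsd, Gla and Mcoln1), against 1.12% of genes. The letters TGATGNAA, a core bound by ATF4-type factors and searched on both strands, were found in 1 of 33 (Ctsl), against 4.51% of genes. The median log2 fold change was 0.24 in the 10 members with an E-box, 8 of them above 0, and 0.15 in the 23 without, 20 of them above 0. For TCACGTGA the medians were 0.12 in the 5 members with it and 0.18 in the 28 without, an order that turned without control replicate 2 (0.27 and 0.12), 2-DG replicate 4 (0.13 and −0.013) or 2-DG replicate 3 (0.175 and 0.171), without both control replicate 2 and 2-DG replicate 3 (0.34 and 0.16) and with limma-voom (0.39 and 0.00015). Among all tested genes, the 1458 with an E-box had a median of 0.06 with 55.1% above 0, and the 245 with TCACGTGA a median of 0.12 with 64.9% above 0. A match describes the letters in a window and not a bound site. The members were listed by function, and E-boxes are known from the promoters of many lysosomal genes. The shares with a motif are therefore not independent of how the members were picked.

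**Figure D2:**
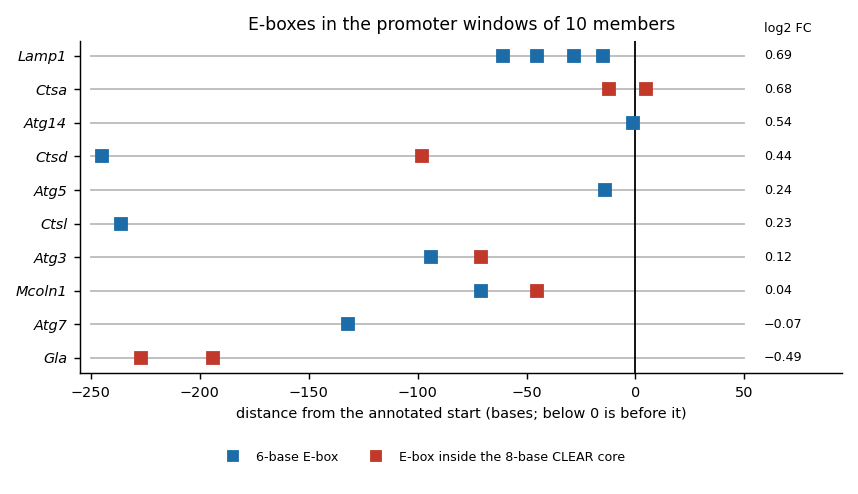
Position of E-boxes (squares, red where the E-box lies inside the 8-base CLEAR core) in the promoter windows of 10 members, as distance in bases from the annotated start, with the log2 fold change of each gene at the right. Genes are ordered by fold change, and the E-boxes of Lamp1, Ctsa and Atg14 at the top lie within 61 bases of the start and those of Gla at the bottom 194 and 227 bases before it, but position does not follow the fold change throughout, with E-boxes 71 and 45 bases before the start of Mcoln1 (0.04) and 245 and 98 bases before that of Ctsd (0.44).

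All 12 initiation genes had a log2 fold change above 0, between 0.01 and 0.54 with a median of 0.18. Only 7 did with limma-voom and 9 with upper-quartile scaling, which lowered all genes. Without control replicate 5 there were 9 above 0, with a median of 0.085, and without 2-DG replicate 4 also 9, with a median of 0.14. In the main fit 2 of the 12 were higher at an unadjusted p under 0.05. Over all genes 49.2% lay above 0 and 2.42% were higher at that limit. Becn1 encodes Beclin 1, the scaffold of the phosphatidylinositol 3-kinase complex (ENSMUSG00000035086, GRCm38 chromosome 11, 101285952 to 101302286). It stood at 88.3, 83.5, 80.3, 85.4 and 89.7 CPM in control replicates 1 to 5 and at 111, 93.9, 121 and 148 CPM in 2-DG replicates 1 to 4. The control libraries were close together and all below the lowest 2-DG library, replicate 2. The mean was 85.4 ± 3.74 CPM (SD, n = 5) in control and 118 ± 22.5 CPM (SD, n = 4) in 2-DG explants. The log2 fold change, here and below with its standard error, was 0.47 ± 0.18 (edgeR's quasi-likelihood test, unadjusted p = 0.0267, adjusted p = 0.636), and its unadjusted p was 0.0758 without 2-DG replicate 4. Becn1 was under 0.05 in 5 of the 9 fits that left out 1 library (also not without control replicates 3 or 4 or 2-DG replicate 3). It was not with upper-quartile scaling, with the replicate number as a block or without both control replicate 2 and 2-DG replicate 3.

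Atg14 encodes the subunit that directs this kinase complex to autophagy (ENSMUSG00000037526, chromosome 14, 47540893 to 47570649). Its level was 33.9, 21.8, 33.1, 33.8 and 33.4 CPM in the control and 41.9, 43.7, 40.4 and 55.6 CPM in the 2-DG libraries. The groups did not overlap, and control replicate 2 was far below the other controls. The means were 31.2 ± 5.28 CPM (SD, n = 5) and 45.4 ± 6.94 CPM (SD, n = 4). For Atg14 the log2 fold change was 0.54 ± 0.20 (edgeR, unadjusted p = 0.0236, adjusted p = 0.623), and the unadjusted p was 0.068 without 2-DG replicate 4. Pik3c3, the catalytic subunit of the same complex, had 24.1 to 30.2 CPM in control and 29.0 to 48.9 CPM in 2-DG libraries, and its groups overlapped.

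The genes of the ULK1 complex overlapped between the groups. Rb1cc1 encodes its scaffold FIP200 and had, with Becn1, the highest level per length among the initiation genes. It stood at 102, 65.5, 126, 93.5 and 75.5 CPM in the control and at 93.6, 110.4, 93.2 and 88.7 CPM in the 2-DG libraries, so that all 2-DG values fell within the control range. The log2 fold change of 0.06 ± 0.22 was close to 0, and its sign turned under 6 of the 17 alternatives. The kinase gene Ulk1 had 70.2 to 116 CPM in control and 81.6 to 104 CPM in 2-DG libraries. The other members of this subgroup, the kinase gene Ulk2, the ULK1 partners Atg13 and Atg101, the lipid scramblase Atg9a, the lipid transfer protein Atg2a and the phosphoinositide readers Wipi1 and Wipi2, also overlapped between the groups.

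The conjugation genes gave no member at an unadjusted p under 0.05, against 2.42% of all genes higher and 4.83% lower. Of the 11, 7 had a log2 fold change above 0 and 4 below, against 49.2% of all genes above 0, with a range of −0.10 to 0.54 and a median of 0.12. Without 2-DG replicate 4 the median was −0.026, with 5 of 11 above 0 and 1 higher at that limit (3.38% of all genes). With limma-voom 3 were higher at that limit, against 10.6% of all genes, and with the replicate block 1, against 3.32%. The 5 LC3 and GABARAP genes encode the ubiquitin-like proteins that become lipid-bound on autophagosomes, and their log2 fold changes ran from −0.07 to 0.54. Gabarap stood at 115, 106, 110.2, 133 and 188 CPM in control and at 164, 178, 146 and 272 CPM in 2-DG libraries. Only control replicate 5 reached into the 2-DG range. Its means were 130.4 ± 33.8 CPM (SD, n = 5) and 189.8 ± 56.1 CPM (SD, n = 4). This is a log2 fold change of 0.54 ± 0.26 (edgeR, adjusted p = 0.704), and of 0.32 without 2-DG replicate 4.

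Map1lc3b, which encodes the autophagosome marker LC3B, had 134, 142, 138, 146 and 188 CPM in the control and 133, 125, 172 and 328 CPM in the 2-DG libraries. Its difference rested on 2-DG replicate 4, the highest of all 9. Its log2 fold change of 0.34 ± 0.30 was −0.06 without that library. Map1lc3a had 94.1, 77.9, 66.2, 75.2 and 58.2 CPM in control and 88.0, 77.9, 53.1 and 65.1 CPM in 2-DG libraries, a log2 fold change of −0.07 ± 0.22, and its groups overlapped.

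Gabarapl1 had 312, 233, 208, 304 and 285 CPM in control and 246, 213, 236 and 367 CPM in 2-DG libraries, and Gabarapl2 had 99.9, 118, 89.6, 99.9 and 91.8 CPM and 92.0, 87.5, 103 and 131 CPM, respectively. In both genes 2-DG replicate 4 was the highest library and the groups overlapped. Gabarapl1 had a log2 fold change of −0.01 (95% interval −0.54 to 0.51) and Gabarapl2 one of 0.05 (−0.37 to 0.48). The enzymes of the system overlapped between the groups as well. These are the E1-like Atg7, the E2-like Atg3, the protease Atg4b and the Atg5, Atg12 and Atg16l1 components of the E3-like complex. Atg16l1 had 58.0 to 93.8 CPM in control and 73.1 to 131 CPM in 2-DG libraries, and Atg4b had 61.6 to 96.6 CPM and 79.8 to 110.7 CPM, with 2-DG replicate 4 the lowest of its group in both.

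**Figure D3:**
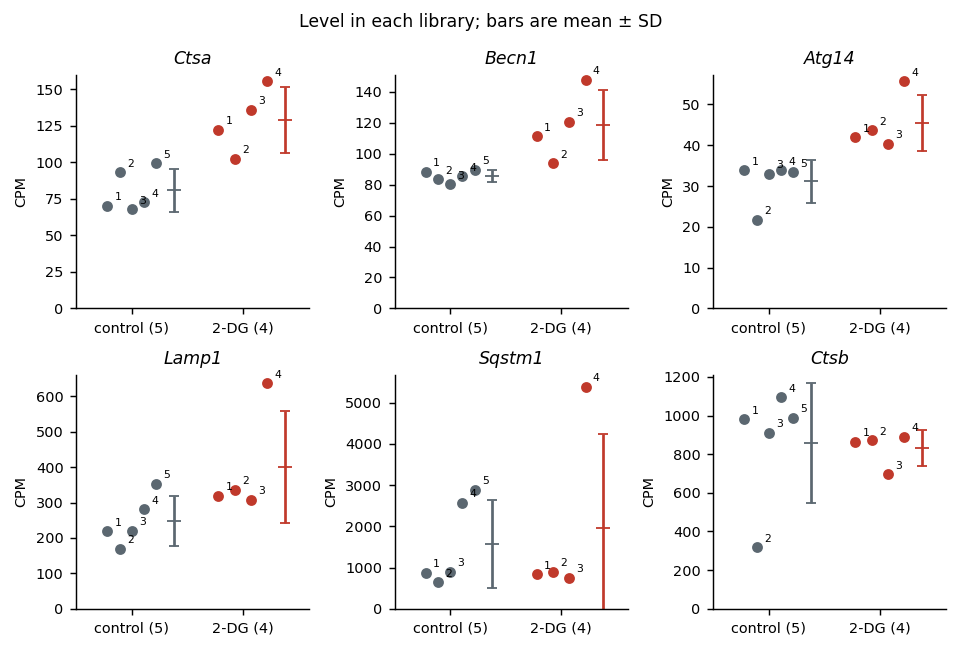
Level in CPM of 6 members in each of the 5 control and 4 2-DG libraries, with replicate numbers beside the points and bars for mean ± SD (the lower bar of Sqstm1 in 2-DG passes 0 and is not drawn beyond it). The groups are apart for Ctsa, Becn1 and Atg14, and control replicate 5 reaches into the 2-DG range for Lamp1. Sqstm1 is high in control replicates 4 and 5 and in 2-DG replicate 4, and Ctsb is low in control replicate 2.

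The receptors were led by Sqstm1, which encodes p62, a protein that binds ubiquitinated cargo and LC3 and is itself degraded by autophagy. It was the most variable member, with a pooled within-group SD of 1.16 on the log2(CPM + 0.5) scale, higher than in 93.4% of genes with a mean of at least 20 CPM. It stood at 874, 645, 897, 2575 and 2889 CPM in the control and at 839, 902, 751 and 5391 CPM in the 2-DG libraries. Control replicates 4 and 5 and 2-DG replicate 4 were high and the other 6 libraries low, in both groups, so that the groups overlapped throughout. A log2 fold change of 0.32 ± 0.71 resulted, which was −0.92 without 2-DG replicate 4. In the same 3 libraries, vessel and pericyte markers (8 genes) summed to 1094, 2030 and 2525 CPM, against 332 to 1035 CPM in the others. Cdh5, at 474, 861 and 1346 CPM in these libraries, made up much of that sum. Not every marker of the list followed. Kdr stood at 82.2, 109 and 50.2 CPM in these libraries, against 64.8 to 174 CPM in the others, and Pdgfrb at 50.2, 104 and 53.7 CPM, against 29.6 to 83.0 CPM. Bipolar cell markers (6 genes) summed to 895, 144 and 274 CPM there, against 416 to 2764 CPM. The part of these markers in the level of Sqstm1 was not tested. In bulk RNA, fewer cells of a type and less RNA per cell cannot be told apart.

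Nbr1, a second ubiquitin-binding receptor, was even across libraries, at 271, 215, 311, 239 and 212 CPM in control and 267, 271, 308 and 210.3 CPM in 2-DG. All but the lowest 2-DG value lay within the control range, and the log2 fold change was 0.08 (95% interval −0.39 to 0.55). Optn, the receptor optineurin, had 48.6 to 114 CPM in control and 60.0 to 128 CPM in 2-DG libraries.

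Transcripts of the TFEB family, whose proteins are regulated by their location in the cell, did not separate the groups. Tfe3 was the most abundant of the 3 per length and stood at 67.2, 64.9, 52.0, 74.8 and 84.8 CPM in control and at 61.5, 57.4, 54.0 and 112 CPM in 2-DG libraries. Apart from 2-DG replicate 4, its 2-DG values were at the lower end of the control range. At 0.05 ± 0.26 its log2 fold change was close to 0, and it was −0.25 without 2-DG replicate 4. Tfeb was low throughout, at 6.65, 8.30, 8.55, 8.99 and 13.4 CPM in control and at 10.4, 7.68, 5.08 and 7.21 CPM in 2-DG libraries, with a log2 fold change of −0.28 ± 0.31, which ran from −0.46 without 2-DG replicate 1 to −0.11 without control replicate 5. Mitf was lower still, at 2.39 to 8.0 CPM in control and 5.79 to 11.4 CPM in 2-DG libraries. Its highest value was in 2-DG replicate 3, where the 10 markers of the retinal pigment epithelium, a tissue that depends on MITF, summed to 294 CPM, against 3.56 to 35.9 CPM in the other 8 libraries. The part of pigment epithelium RNA in the Mitf level was not tested.

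Lysosomal enzymes held the member with the smallest p-value. Ctsa encodes cathepsin A, the protective protein that stabilises neuraminidase and β-galactosidase in lysosomes (ENSMUSG00000017760, chromosome 2, 164832873 to 164841032). It stood at 70.4, 93.4, 67.9, 72.7 and 99.2 CPM in the control and at 122, 103, 136 and 156 CPM in the 2-DG libraries. Every 2-DG library lay above every control library, with control replicate 5 and 2-DG replicate 2 next to each other. The means were 80.7 ± 14.5 CPM (SD, n = 5) and 129 ± 22.4 CPM (SD, n = 4). For Ctsa the log2 fold change was 0.68 ± 0.21, with a 95% interval of 0.22 to 1.13 (edgeR, unadjusted p = 0.00766, adjusted p = 0.536). Ctsa had an unadjusted p under 0.05 in each of the 9 fits that left out 1 library, with a highest value of 0.0293.

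The 2 cathepsins with the highest level per length did not separate the groups. Ctsb, a cysteine protease, had 980.4, 319, 911, 1095 and 989 CPM in control and 865, 874, 695 and 891 CPM in 2-DG libraries. Control replicate 2 was far below all the others, and the log2 fold change was −0.05 with a 95% interval of −0.81 to 0.72. Ctsd, the main aspartic protease of lysosomes, had 702, 243, 538, 436 and 399 CPM in control and 715, 792, 540.2 and 460.1 CPM in 2-DG libraries, with control replicate 2 again the lowest. This gave a log2 fold change of 0.44 ± 0.32 (edgeR, adjusted p = 0.798), and of 0.27 without control replicate 2.

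Of the other enzymes, the cathepsin genes Ctsl and Ctsz, the hexosaminidase subunit Hexa, the α-galactosidase Gla and the sialidase Neu1, 3 had a log2 fold change above 0 and 2 below. Gla had the lowest fold change of all members, at 23.9, 19.8, 37.6, 46.8 and 58.6 CPM in control and 27.5, 24.3, 23.4 and 31.5 CPM in 2-DG libraries. All 4 2-DG libraries lay below the control mean of 37.3 ± 16.1 CPM (SD, n = 5), but control replicates 1 and 2 were as low. The log2 fold change was −0.49 ± 0.32 (edgeR, adjusted p = 0.778), and −0.27 without control replicate 5. Transcripts of Gla with a known length summed to 15.5% of its gene value, so what that value counts is uncertain. Over the 8 enzymes the median log2 fold change was 0.17, and it was −0.047 without 2-DG replicate 4, with 3 of 8 above 0.

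Among the 4 lysosomal membrane proteins, Lamp1 had the highest level per length and the largest fold change of all 41 members. It encodes the heavily glycosylated LAMP-1, a main protein of the lysosomal membrane (ENSMUSG00000031447, chromosome 8, 13159161 to 13175338). It stood at 219, 169.9, 220.3, 281 and 354 CPM in control and at 319, 336, 308 and 637 CPM in 2-DG libraries. Control replicate 5 lay above 3 of the 4 2-DG libraries, and 2-DG replicate 4 was far above the rest. The means were 249 ± 70.6 CPM (SD, n = 5) and 400.1 ± 159 CPM (SD, n = 4). The log2 fold change was 0.69 ± 0.30 (edgeR, unadjusted p = 0.0469, adjusted p = 0.689). Leaving out 2-DG replicate 4 lowered it to 0.37, with an unadjusted p of 0.189. Lamp1 was under 0.05 in 3 of the 9 fits that left out 1 library, and not with upper-quartile scaling or without both control replicate 2 and 2-DG replicate 3.

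Lamp2, its paralog and a receptor for chaperone-mediated autophagy, stood at 150.1, 64.2, 153, 189 and 171 CPM in control and at 155, 171, 189.8 and 211 CPM in 2-DG libraries. Control replicate 2 was by far the lowest and the remaining libraries overlapped, with a log2 fold change of 0.32 ± 0.29, which was 0.13 without control replicate 2. Mcoln1, the lysosomal calcium channel, had 135 CPM in control replicate 2, and the other 4 control libraries, at 46.2 to 59.7 CPM, lay below all 2-DG libraries, at 67.9 to 74.6 CPM. Without control replicate 2 it was among the members with an unadjusted p under 0.05. The cholesterol exporter Npc1 had 114 to 215 CPM in control and 86.7 to 247 CPM in 2-DG libraries.

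**Figure D4:**
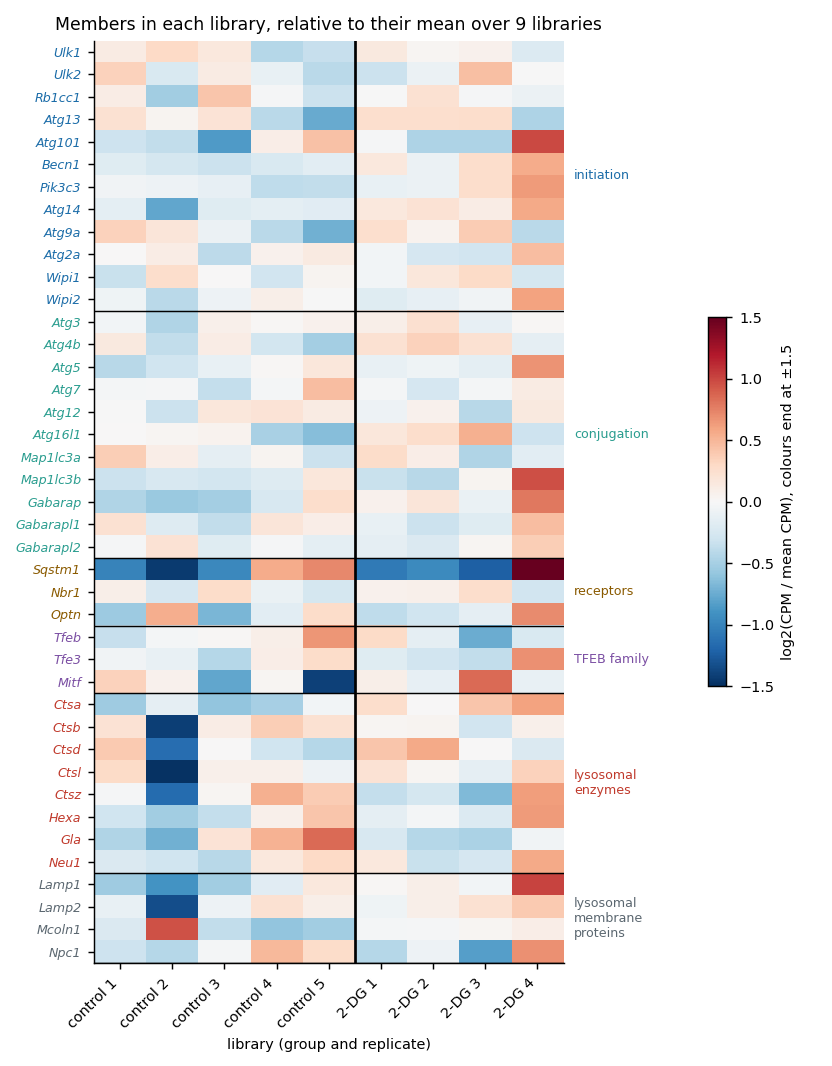
Level of each of the 41 members (rows, grouped and coloured by subgroup) in each of the 9 libraries (columns), as log2 of CPM over the mean of the 9 libraries, red above and blue below the mean, with colours ending at ±1.5. 2-DG replicate 4 is the reddest column, with the highest value of 22 members, and control replicate 2 is blue for most lysosomal genes, 8 of 12 of which are lowest there.

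Single libraries held many of the extreme values of the members. 2-DG replicate 4 held the highest value of 22 of 41 members (53.7%), against 17.7% of all genes tested, and the lowest value of 1. Its TMM factor of 0.820, which raises its CPM, was the lowest of the 9, with 0.945 to 1.09 in the others. Control replicate 2 held the lowest value of 14 members (34.1%, against 22.6% of all genes), among them 8 of the 12 lysosomal genes and 6 of the 29 autophagy and TFEB family genes. In control replicate 2 the rod markers were at 45158 CPM, against 5237 to 17411 CPM in the other libraries, and cone markers at 550 CPM, against 54.4 to 124 CPM in all others but 2-DG replicate 3 (691 CPM). Their part in the low lysosomal values was not tested. The 10 markers of microglia, which are rich in lysosomal enzymes, summed to 14.2 to 55.7 CPM in control and 15.2 to 64.0 CPM in 2-DG libraries, with P2ry12 at 0 in 2-DG replicate 1. Of these 10, 8 had a log2 fold change above 0 and 0 had an unadjusted p under 0.05. The 8 Müller glia markers summed to 1743 to 6735 CPM in control and 774 to 3283 CPM in 2-DG libraries, with 2 of 8 above 0 and Glul (−1.28) and Slc1a3 (−1.07) lower at that limit. Of the 6 pigment epithelium markers that could be tested, 4 (Ttr, Pmel, Tyrp1 and Dct) were higher at the limit, each with its highest value in 2-DG replicate 3, and Rpe65 was at 0 in 4 libraries. The part of these cell types in the levels of the members was not tested. Among members with a mean of at least 20 CPM (38 genes), the median within-group SD was 0.32 on the log2 scale, against 0.43 over all genes at that level.

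The rest of the pathway was covered by 150 further genes in 7 lists. The lysosomal hydrolases and their cofactors stood out by count. Of 34, 29 (85.3%) had a log2 fold change above 0, with a median of 0.26, and 9 (26.5%) were higher at an unadjusted p under 0.05, with 0 lower. Over all genes these shares were 49.2% above 0, 2.42% higher and 4.83% lower. Lipa, the acid lipase that frees cholesterol from its esters, had the smallest p-value (edgeR, unadjusted p = 0.00126, adjusted p = 0.510). It stood at 29.6, 24.1, 34.6, 26.2 and 26.3 CPM in control and at 50.3, 49.9, 57.6 and 138 CPM in 2-DG libraries. Its groups were apart, at a log2 fold change of 1.39 ± 0.32, which was 0.90 without 2-DG replicate 4.

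Others with a higher level at that limit were Grn, which encodes progranulin, a cofactor of lysosomal hydrolases, with a log2 fold change of 1.01 ± 0.31, the peptidase Tpp1 with 0.55 ± 0.20, the β-galactosidase Glb1 with 0.99 ± 0.36 (0.56 without 2-DG replicate 4) and the acid ceramidase Asah1 with 0.52 ± 0.19. None passed the adjusted threshold in edgeR's quasi-likelihood test, with adjusted p-values of 0.536 to 0.616. Lipa passed it with DESeq2 (adjusted p = 0.0145) and limma-voom (adjusted p = 0.0254), and Grn with limma-voom (adjusted p = 0.0475). Over all alternatives the adjusted p of both reached up to 0.985. Man2b1, Ctss and Ctsk were also among the 9. Groups were apart for 4 hydrolases, all higher in 2-DG (4 of 34, against 1.52% of all genes), Lipa and Galc among them. The count of 9 was 4 without control replicate 4 (1.35% of all genes) and 4 without 2-DG replicate 3 (1.94%). With both control replicate 2 and 2-DG replicate 3 left out it was 6, against 2.90% of all genes, with 24 of 34 above 0, against 51.0% of all genes. Ctss is also a gene of microglia and was highest, at 26.4 CPM, in 2-DG replicate 3, the library with the highest microglia marker sum (64.0 CPM).

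The other lists held at most 1 gene each at that limit, against 2.42% of all genes higher and 4.83% lower. The vacuolar ATPase, which acidifies the lysosome, had 16 of 18 subunits above 0 (median 0.18) and 0 with an unadjusted p under 0.05. The mTORC1 and AMPK genes, which sense nutrients and energy upstream of autophagy, had 24 of 35 above 0 (median 0.15) and likewise 0. Of 24 further genes of the autophagy machinery, 15 lay above 0 and 1 was lower at the limit, the E2-like enzyme Atg10 (log2 fold change −0.67). It was no longer under the limit without control replicates 4 or 5, without any single 2-DG library, and with the replicate block. Of 15 further selective receptors 6 lay above 0, and the glycogen-binding receptor Stbd1 was lower at the limit, at −1.25. Further lysosomal membrane proteins gave 11 of 18 above 0, with the cystine exporter Ctns higher at the limit (0.76). Ctns was not under the limit without control replicates 3 or 4 or 2-DG replicates 3 or 4, with upper-quartile scaling or with the replicate block. Lysosomal sorting genes gave 4 of 6 above 0 with 0 at the limit.

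**Figure D5:**
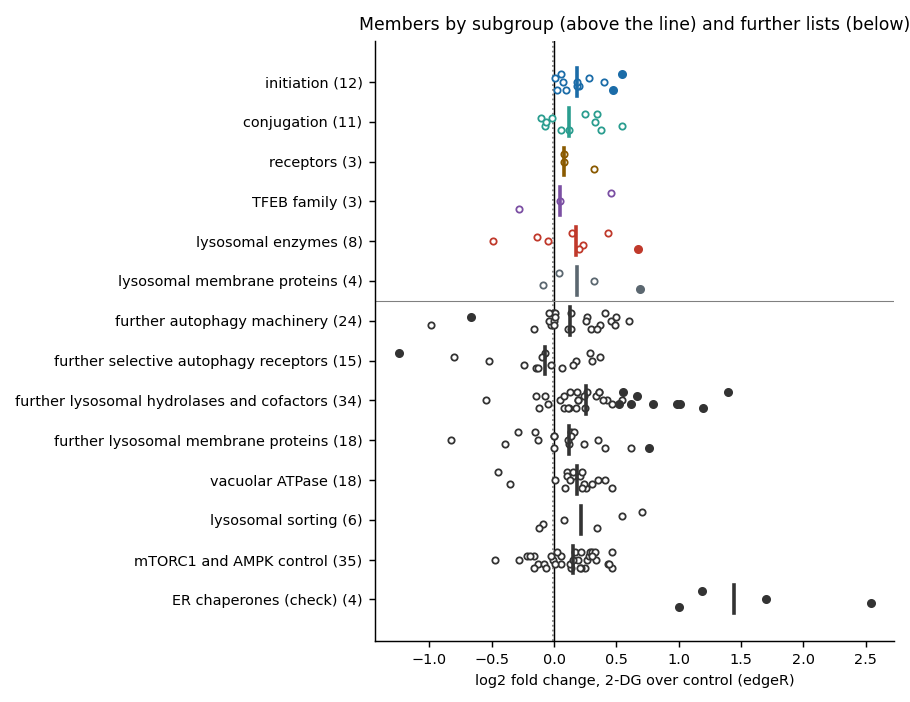
Log2 fold change (x axis, 2-DG over control, edgeR) of the members by subgroup, above the line, and of the genes of 7 further pathway lists and 4 endoplasmic reticulum chaperones, below it, with the number of genes in parentheses. Filled circles have an unadjusted p under 0.05 and vertical bars are medians, which lie at 0.05 to 0.26 in all but the further selective receptors (−0.07) and the chaperones (1.44).

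Transcripts of the members were compared in the transcript table. Of 195 member transcripts tested, 0 passed the adjusted threshold, 1 was higher at an unadjusted p under 0.05 (against 1.17% of the 62900 transcripts tested) and 3 were lower (against 2.28%). The higher one was Pik3c3-202, and the lower ones were Ctsl-205 and the intron-retaining Ctsa-208 and Ctsb-203. All 4 were minor forms, with 0.106% to 4.22% of the level of their gene per length. Ctsa-208 had a mean of 0.593 ± 0.270 CPM (SD, n = 5) in control and 0.140 ± 0.0871 CPM (SD, n = 4) in 2-DG explants, in groups that were apart, but its level in 2-DG replicates 1 and 2 (0.155 and 0.0576 CPM) was below that of 3 counts in those libraries (0.255 and 0.0933 CPM). The leading transcript of Ctsa, Ctsa-202, took 59.8% of the gene and had a log2 fold change of 0.53, and Lamp1-201 and Atg14-201, with 99.1% and 94.7% of their genes, had 0.66 and 0.53. In 12 of the 41 members the leading transcript had the opposite sign to the gene, among them 6 of the 12 initiation genes (Rb1cc1, Ulk1, Ulk2, Atg9a, Wipi1 and Wipi2), where it lay below 0. For Becn1 no form took more than 20.5%, and that one, Becn1-202, is annotated as retaining an intron. The division of reads between transcripts has an error that these counts do not carry. Exons of 16 members overlap exons of another gene, in 15 of them on the opposite strand, including Ctsa, Becn1, Atg14, Lamp1, Sqstm1 and Ctsb. The kit keeps strand, but whether the counting used it is not given in the sources used here, so reads of the partner gene cannot be told apart.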

How the data were processed

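RNA-seq of 5 control and 4 2-DG retinal explant libraries was analysed. Stranded total RNA libraries were made from 4 ng of RNA with 13 PCR cycles and sequenced as read pairs of 101 bases, all in batch 1. The authors deposited estimated counts per gene and per transcript, not scaled between libraries. The submitters' processing notes name kallisto and GRCm38, and the version is not given in the sources used here. A table of normalised values and the authors' own comparison (fold changes and p-values) were not used. Counts were rounded, which moved no total by more than 0.00377%. Genes were kept by filterByExpr, scaled by TMM and tested with edgeR 4.0.16 (R 4.3.3, glmQLFit with legacy=TRUE, group as the only term) over 21049 genes, with Benjamini-Hochberg adjustment and a threshold of 0.05. The standard error is the log2 fold change over the square root of F. The biological coefficient of variation was 51.5%. Alternatives used DESeq2 1.42.0, limma 3.58.1, other scalings, no filter, and fits without each library. The script was tested on simulated data with changes larger than that of any member, so the test does not cover changes of the members' size. Levels per length (TPM) came from transcripts with a GENCODE M21 length. Symbols matched 99.4% of gene IDs. Full values are given for members at an unadjusted p under 0.05, members whose groups do not overlap, the 2 members with the highest level per length in each subgroup and the LC3 and GABARAP genes, and for up to 6 genes per further list by p-value. Some items of these lists are not reported here by name. Gla was added as the lowest member after its value was seen, as were the members named by a range only. The members and lists were chosen with earlier results of these data known. Reads carry no molecular identifiers here, so floors cover counting error only.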

Additional observations from a re-analysis of the deposited data

Results flagged for a closer look

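A library lay far from the others of its group, with a gap to its nearest neighbour above Dixon's 95% critical value, in 16 of 82 tests over the members in each group, or 19.5%, against 12.1% of the same tests over all genes, where chance gives about 1 in 20. In 2-DG explants the library concerned was mostly replicate 4, which was high in Wipi2 (193 CPM), Atg5 (39.8 CPM), Sqstm1 (5391 CPM), Optn (128 CPM), Tfe3 (112 CPM), Hexa (108 CPM) and Lamp1 (637 CPM) and low in Atg13 (59.7 CPM). 2-DG replicate 3 was high in Mitf (11.4 CPM) and low in Ctsb (695 CPM). In control explants replicate 2 was low in Atg14 (21.8 CPM), Atg3 (35.4 CPM) and Ctsb (319 CPM) and high in Mcoln1 (135 CPM), replicate 3 was low in Atg2a (37.3 CPM), and replicate 5 was high in Map1lc3b (188 CPM). Of the marker sums tested in the same way, 2-DG replicate 3 was high in microglia markers (64.0 CPM) and pigment epithelium markers (294 CPM), and control replicate 2 in rod markers (45158 CPM).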

How the results depend on the processing

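Of the 41 members, 19 kept the sign of their fold change under all 17 alternatives and 22 changed it under at least 1. Of 697 fold changes of the 41 members, 624 kept their sign and side of the adjusted threshold, 72 changed sign and 1 (Ctsa under limma-voom) passed the threshold, and the members that changed sign had a log2 fold change of at most 0.34 in size. The cause of these differences was not tested. DESeq2 called 284 genes and limma-voom 1222, 1 of them a member. Under limma-voom 9 members were higher and 2 lower at an unadjusted p under 0.05, with 32 of 150 further pathway genes higher and 9 lower, against 10.6% and 15.4% of all genes. Under upper-quartile scaling 2 members were higher (1.53% of all genes, with 6.07% lower). Of 150 further pathway genes 1 was lower without a low-count filter, against 5.19% of all genes, and 5 without both control replicate 2 and 2-DG replicate 3, against 6.29%.

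The sign turned in 7 members with upper-quartile scaling, 12 with limma-voom, 5 without both of those libraries, 4 with the replicate block, 1 without the filter and 1 to 10 without 1 library. Among the members given with full values it turned with upper-quartile scaling for Rb1cc1 (−0.013), Gabarapl2 (−0.033) and Tfe3 (−0.039), without the filter for Gabarapl1 (0.0058), with limma-voom for Rb1cc1 (−6.71e-05), Map1lc3a (0.11), Map1lc3b (−0.078), Gabarapl2 (−0.069), Sqstm1 (−0.72) and Tfe3 (−0.16), and without both of those libraries for Rb1cc1 (−0.023), Map1lc3a (0.071) and Nbr1 (−0.048).

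Leaving out 1 library at a time gave 0 to 16 genes past the threshold, 2 to 5 members higher and 0 to 1 lower at the unadjusted limit, 4 to 15 further pathway genes higher and 1 to 6 lower, 4 to 9 further hydrolases higher, and 1 to 8 member transcripts in either direction, while 1.35% to 3.38% of all genes were higher and 3.17% to 9.49% lower. The median log2 fold change ran from 0.013 to 0.18 for all members, 0.085 to 0.21 for initiation, −0.026 to 0.17 for conjugation, −0.23 to 0.21 for the receptors, −0.25 to 0.17 for the TFEB family and −0.047 to 0.27 for the lysosomal enzymes. Among the members given with full values, fold changes that turned sign ran from −0.044 to 0.19 for Rb1cc1, −0.18 to 0.054 for Map1lc3a, −0.060 to 0.50 for Map1lc3b, −0.21 to 0.080 for Gabarapl1, −0.082 to 0.13 for Gabarapl2, −0.92 to 0.65 for Sqstm1, −0.25 to 0.17 for Tfe3 and −0.26 to 0.033 for Ctsb.

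The sample labels do not say whether same-numbered samples were paired. The correlations of their deviations were 0.451, −0.155, 0.102 and 0.205. Both samples of replicate 1 correlated best with their own number, but not every sample did, and these few values cannot decide the question. With the replicate number as a block, 4 members were higher (Atg14, Gabarap, Ctsa and Lamp1) and 0 lower at the unadjusted limit (3.32% and 3.06% of all genes), 0 genes passed the threshold, 0 further pathway genes were lower, the initiation median was 0.083 and Ctsb was at 0.12. The members lay above the level of 3 counts in every library.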

Other observations

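Levels per length place the members on 1 scale. In control explants Sqstm1 was the most abundant, at 1720 ± 1051 TPM (transcripts per 1000000, SD, n = 5), followed by Ctsb at 637 ± 261 TPM and Ctsd at 476 ± 244 TPM, neighbours that do not differ beyond their spread. Gabarapl1 (310.0 TPM), Ctsl (309.6 TPM), Gabarap (235 TPM) and Lamp1 (229.7 TPM) came next, then Map1lc3a (181 TPM), Gabarapl2 (164 TPM), Nbr1 (157 TPM) and Map1lc3b (142 TPM). The initiation genes were lower, from 17.7 TPM for Pik3c3 to 95.8 TPM for Becn1, and the TFEB family ran from 3.04 TPM for Mitf over 10.5 TPM for Tfeb to 45.5 TPM for Tfe3. Transcripts with a known length summed to between 90.1% and 104% of the gene value in the 40 members other than Gla, and to 15.5% for Gla, for which no level per length is given.

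On this scale Lamp1 stood at 229.7 ± 58.4 TPM in control and 343 ± 23.2 TPM in 2-DG explants (SD, n = 5 and n = 4), Gabarap at 235 ± 48.2 and 328 ± 21.6 TPM, and Ctsa at 84.9 ± 6.29 and 133 ± 24.3 TPM. TPM carry no TMM scaling.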
